A study of Mus musculus with 6 samples.

Results

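The genes of the nuclear receptors and of their main coregulators were followed by RNA sequencing in the mouse hippocampus. The set was a list of 41 names, 36 receptors and 5 coregulators, taken out of the 25239 gene symbols listed in the count tables, and the Nr4a receptors were left out of it. The list follows gene families and was drawn up with earlier results of these data known. Of the 41 genes, 39 had at least 1 count in some library and 36 had enough counts to be tested. RNA came from the hippocampi of 3 WT mice (Ube3a m+/p+) and 3 Ube3a m-/p+ mice, all male, aged 6 to 8 weeks and of the C57BL/6 strain, with 1 library per mouse. WT mice had functional maternal and paternal copies of *Ube3a*, the gene of the ubiquitin ligase E6AP. The Ube3a m-/p+ mice, a model of Angelman syndrome, lacked a functional maternal copy and kept the paternal one throughout life and in all tissues. The paternal copy is silent in most neurons and active in other cells, so a piece of hippocampus still holds *Ube3a* RNA. The study asked how loss of *Ube3a* bears on retinoic acid signalling, which runs through members of this family.

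Nuclear receptors are transcription factors that bind DNA through zinc fingers and, in many members, a small fat-soluble ligand such as a steroid, thyroid hormone, retinoic acid or an oxysterol. Retinoic acid, thyroid hormone, vitamin D and lipid receptors mostly sit on DNA as heterodimers with a retinoid X receptor, while steroid receptors pair with themselves. Without ligand many of them hold corepressors such as NCoR, and ligand exchanges these for coactivators of the p160 family, which bind the receptor through short LxxLL stretches. UBE3A carries such stretches and has been described as a coactivator of steroid hormone receptors. In the hippocampus the family is known above all for the mineralocorticoid and glucocorticoid receptors, which read corticosterone, and for the thyroid hormone receptor alpha.

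Sequences before the start of transcription are shown for 4 members to which the results return. *Rarb* is the textbook target of its own receptor, and its element is given with 7 bases on each side. *Rxrb* had the largest fold change above 0 among the 36 members tested, and *Rora* and *Rorb* both fell. All are written 5′ to 3′ on the strand of the gene, from the RefSeq windows on GRCm38.p6. The *Rarb* stretch lies at chr14:16575506-16575535 on the minus strand, and capitals mark the element, a direct repeat of GTTCA spaced by 6 bases, which ran from 52 to 37 bases before the RefSeq start. For the others capitals mark CG dinucleotides. The *Rxrb* stretch (chr17:34031683-34031811, plus strand) is the part of its window before the first RefSeq start that overlapped no annotated exon. The *Rora* stretch (chr9:68653536-68653785, plus strand) and the *Rorb* stretch (chr19:19111197-19111446, minus strand) end at the base before the start of the gene in GENCODE M21.
Rarb: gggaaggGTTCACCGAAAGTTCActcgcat
Rxrb: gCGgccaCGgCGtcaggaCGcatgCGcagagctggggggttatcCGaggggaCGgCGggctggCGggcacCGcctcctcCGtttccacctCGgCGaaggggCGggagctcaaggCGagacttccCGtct
Rora: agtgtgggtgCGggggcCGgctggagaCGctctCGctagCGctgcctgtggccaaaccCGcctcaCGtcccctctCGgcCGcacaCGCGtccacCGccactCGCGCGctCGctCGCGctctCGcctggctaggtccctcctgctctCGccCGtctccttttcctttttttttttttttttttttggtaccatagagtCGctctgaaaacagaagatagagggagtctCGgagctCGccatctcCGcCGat
Rorb: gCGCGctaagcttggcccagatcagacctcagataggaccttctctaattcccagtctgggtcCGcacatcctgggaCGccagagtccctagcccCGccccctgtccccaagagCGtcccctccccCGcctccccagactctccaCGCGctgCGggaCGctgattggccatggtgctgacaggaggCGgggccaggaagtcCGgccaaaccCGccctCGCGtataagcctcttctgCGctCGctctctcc

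The windows, from 250 bases before to 50 bases after a RefSeq start, numbered 60 for 37 members and 32851 in all, and both strands were searched. The repeat GTTCA, 6 bases and GTTCA was found in 25 of all windows (0.0761%), and *Rarb* was the single member with it. The receptor half-site AGGTCA was found in 11 of the 60 member windows and in 16.3% of all windows. The 10 members with it were *Rara*, *Rarg*, *Rxra*, *Rxrg*, *Thrb*, *Nr1d2*, *Pparg*, *Nr1h4*, *Nr5a2* and *Nr6a1*. The E-box CACGTG, the site of the clock factors, was found in 4 member windows, of *Rara*, *Thrb* and *Esr2*, and in 7.15% of all windows. TAGGTCA, the core of the element that REV-ERB and ROR receptors share, contains AGGTCA, was found in 2.61% of all windows and in no member window. Member windows had a median GC content of 59.3% against 52.7% in all windows, and a median of 13.5 against 7 CG dinucleotides. These matches describe the letters of the windows and say nothing of binding.

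The authors' counts on genes came to 7293272 to 8675252 per library in WT and 8871052 to 11314409 in Ube3a m-/p+ mice, and no 2 libraries agreed within counting noise. Levels are given as CPM, the counts of a gene per 1000000 counts on genes. A difference is the log2 fold change of Ube3a m-/p+ against WT that edgeR's quasi-likelihood F test gave after TMM scaling, with its standard error (SE). Its p is adjusted over all 14445 genes tested by Benjamini-Hochberg. A gene was called where the adjusted p was below 0.05 and the fold above 1.2. Markers of hippocampal pyramidal and granule neurons summed to 954 to 1053 CPM in WT and 899 to 975 in Ube3a m-/p+ mice, so the tissue carried its defining genes. No marker of any of the 11 lists was at 0 in all libraries. Summed markers were lower in every Ube3a m-/p+ mouse for interneurons (660 to 684 CPM in WT, 603 to 629 in Ube3a m-/p+), oligodendrocytes (8219 to 8339 against 6872 to 7832), microglia (408 to 445 against 377 to 396) and endothelium with pericytes (421 to 440 against 364 to 390.0), and higher for ependyma (30.7 to 34.2 against 45.7 to 56.8). Each list held 8 markers and its sum follows the most abundant ones, so the single markers did not all go with the sum. Fold changes were above 0 for 5 of 8 interneuron markers (median log2 fold change 0.11), with *Gad1* and *Gad2* below 0, for 3 of 8 oligodendrocyte, 4 of 8 microglial and 4 of 8 endothelial markers, and for 8 of 8 ependymal ones. Choroid plexus markers spanned 103 to 2211 CPM in WT mice and 109 to 2303 CPM among Ube3a m-/p+ mice, and thalamus (75.1 to 87.2 against 86.5 to 89.4), striatum (187 to 205 against 187 to 217), astrocyte (2276 to 2320 against 2239 to 2326) and meningeal markers (88.4 to 145 against 92.4 to 173) overlapped. The part of these cell types in any difference below was not tested. The libraries also differed in how their counts followed the GC content of genes, which is taken up after the members.

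*Ube3a* itself was measured at 104, 141 and 151 CPM in WT mice 1, 2 and 3 and at 96.8, 82.9 and 80.6 CPM in Ube3a m-/p+ mice 1, 2 and 3. Every Ube3a m-/p+ mouse was below every WT mouse, with Ube3a m-/p+ mouse 1 close under WT mouse 1. The log2 fold change was -0.58 (SE 0.12, edgeR adjusted p = 0.0363), and an exact two-sided permutation test over the mice gave p = 0.1, the smallest that 3 against 3 allow. Leaving out WT mouse 2 or 3, or Ube3a m-/p+ mouse 2 or 3, ended the call (adjusted p 0.142 to 0.251), and a correction for GC content and length moved the fold change to -0.20 (edgeR adjusted p = 0.241). Its exons overlap those of *Snhg14* on the opposite strand over 1803 bp, and neither the strand setting of the counting nor the deleted part of the gene is given in the sources used here. Because the tissue was sequenced in bulk, fewer cells of a type and less RNA per cell cannot be told apart for this gene or for any below.

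Among the 36 members tested, edgeR called *Thra* higher and *Rora* and *Rorb* lower in Ube3a m-/p+ mice. These 3 are 8.33% of the members tested, against 2.01% of all genes tested, of which 1.02% were called higher and 0.99% lower. At an unadjusted p below 0.05 there were 8 members (22.2%, against 24.6% of all genes). *Rxrb*, *Thra* and *Nr2f6* were the 3 higher ones (12.2% of all genes), and *Nr1d2*, *Rora*, *Rorb*, *Esrrg* and *Nrip1* the 5 lower ones (12.4% of all genes). The CPM of the genotypes did not overlap for 11 members (30.6%, against 25% of all genes), with *Rxrb*, *Thra* and *Nr1h3* higher (10.8% of all genes) and *Nr1d2*, *Rora*, *Rorb*, *Nr3c1*, *Nr3c2*, *Pgr*, *Esrrb* and *Nrip1* lower (14.2% of all genes). The median log2 fold change of the 36 members was -0.10, with 14 above 0 (50.3% of all genes) and 22 below (49.7% of all genes), beside 0.0025 over all genes tested. The 95% interval of the log2 fold change lay within 0.5 on both sides of 0 for 16 members. The 5 members that could not be tested had 0 to 19 counts over the 6 libraries.

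**Figure D1:**
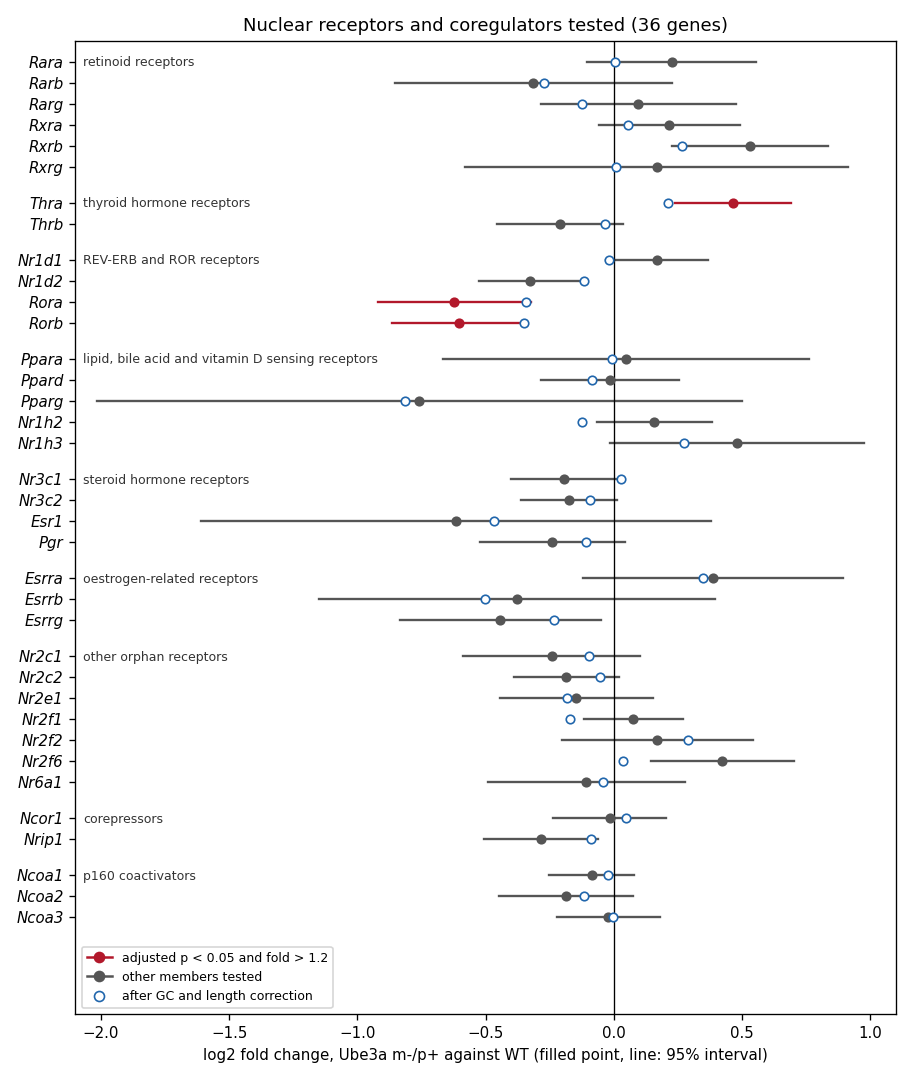
Log2 fold change of Ube3a m-/p+ against WT mice for the 36 members tested, grouped by role, with its 95% interval (line) from edgeR and, as open circles, the value after the correction for GC content and length. *Thra* (0.47), *Rora* (-0.62) and *Rorb* (-0.60) are the members called, and their open circles lie closer to 0.

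Levels between genes were compared as CPM per kilobase of annotated exon. *Thra* stood highest in WT mice, at 169 ± 14.2 (SD, n = 3), followed by *Nr1d1* at 104 ± 2.71 and, well below, by *Nr3c2* at 41.2 ± 0.907. The coactivator *Ncoa1* (27.4 ± 0.890) and the corepressor *Ncor1* (21.6 ± 1.4) came next, and all 5 coregulators were above 1. In WT mice 2 members were above 100 on this scale, 10 between 10 and 100, 20 between 1 and 10, and 9 below 1. The 9 low ones were *Rxrg*, *Pparg*, *Esrrb*, *Esr1*, *Nr1h4*, *Vdr*, *Esr2*, *Hnf4a* and *Nr5a2*. *Thra* alone made up 35.6% to 38.3% of the summed level of the 36 receptors in the WT mice and 40.5% to 45.6% in the Ube3a m-/p+ mice. These shares rest on CPM without the correction for GC content and length, and *Thra* has a GC content of 59.8%.

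**Figure D2:**
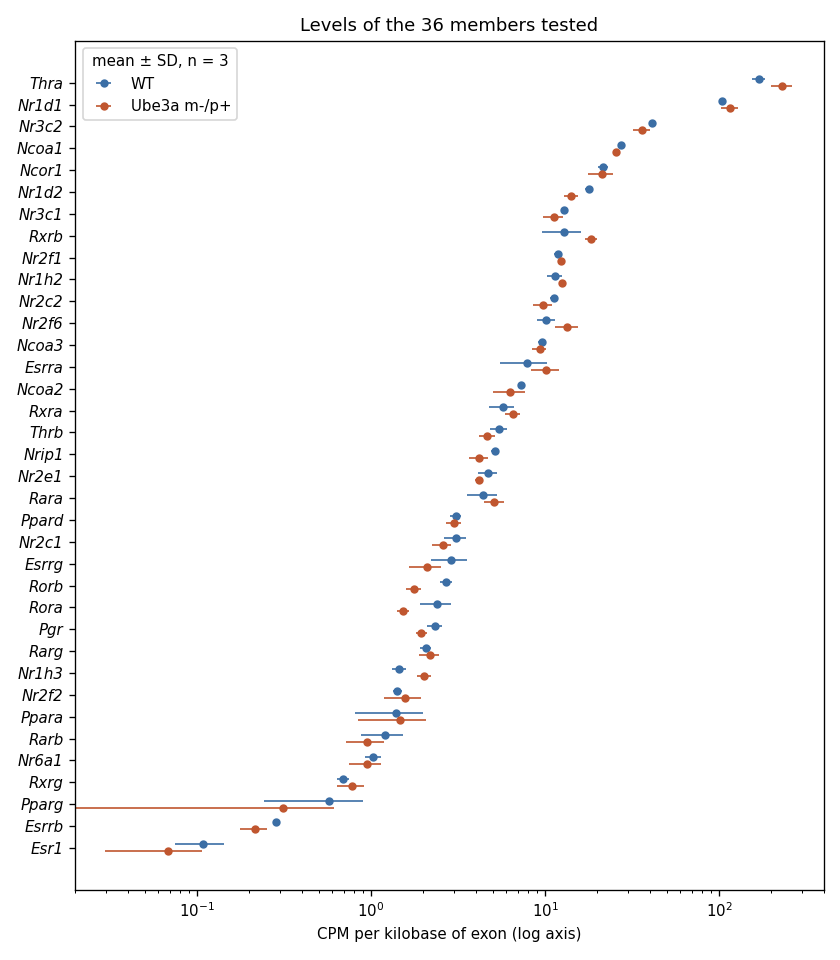
Level of the 36 tested members in CPM per kilobase of exon on a log axis, ordered by the WT mean, with points for the mean and lines for the SD of 3 mice per genotype. *Thra* and *Nr1d1* are above 100 in WT mice, and *Rxrg*, *Pparg*, *Esrrb* and *Esr1* are below 1.

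The retinoid receptors bind retinoic acid (the RAR genes *Rara*, *Rarb* and *Rarg*) or serve as shared heterodimer partners (the RXR genes *Rxra*, *Rxrb* and *Rxrg*). None of the 6 was called by edgeR in Ube3a m-/p+ mice. *Rxrb* and 4 others had a fold change above 0 and *Rarb* below it. *Rxrb* (GRCm38 chr17:34031812-34038399) was at 65.6, 44.96 and 42.5 CPM in WT mice 1, 2 and 3 and at 66.5, 74.3 and 77.9 CPM in Ube3a m-/p+ mice 1, 2 and 3. The genotypes did not overlap, but the lowest Ube3a m-/p+ mouse and WT mouse 1 were almost level. Its log2 fold change was 0.53 (SE 0.14, 95% interval 0.23 to 0.84, edgeR adjusted p = 0.0594, exact permutation p = 0.1), so it missed the call by edgeR and passed it by DESeq2 (adjusted p = 0.0156). DESeq2 also called more of all genes, 951 against 290 by edgeR. Without WT mouse 1 edgeR called *Rxrb* at 0.76 (adjusted p = 0.00103), and without Ube3a m-/p+ mouse 1 at 0.60 (adjusted p = 0.0380). No other fit that left out a mouse called it. The correction for GC content and length left 0.27 (edgeR adjusted p = 0.158), without a call. A block for the mouse number gave 0.55 (edgeR adjusted p = 0.216), also without a call.

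*Rara*, the receptor whose protein the study followed, was at 22.7, 20.1 and 15.2 CPM in WT mice and 19.4, 22.5 and 25.2 CPM in Ube3a m-/p+ mice. The genotypes overlapped, WT mouse 1 lying above 2 of the Ube3a m-/p+ mice, and the log2 fold change was 0.23 (SE 0.15, 95% interval -0.10 to 0.55, edgeR adjusted p = 0.380). *Rarb*, whose transcription retinoic acid induces through the element shown above, was at 4.71, 6.11 and 8.09 CPM in WT and 6.2, 3.71 and 5.13 CPM in Ube3a m-/p+ mice. Here Ube3a m-/p+ mouse 1 reached WT mouse 2, and the log2 fold change of -0.31 (SE 0.25, edgeR adjusted p = 0.465) had a 95% interval from -0.85 to 0.23, wide enough to hold a fall of 1.2-fold as well as no change. Of the exons of *Rarb*, 34.1% (1793 bp) overlap *Top2b* on the opposite strand, so its counts may hold reads of that gene.

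*Rarg* was at 9.31, 8.99 and 8.09 CPM in WT and 8.0, 9.46 and 10.4 CPM in Ube3a m-/p+ mice (log2 fold change 0.10, SE 0.18, edgeR adjusted p = 0.779). *Rxra* was at 35.7, 25.5 and 32.4 CPM in WT and 33.6, 39.7 and 33.8 CPM in Ube3a m-/p+ mice (log2 fold change 0.22, SE 0.13, edgeR adjusted p = 0.311). Both overlapped between the genotypes. *Rxrg*, at 1.53, 1.73 and 1.51 CPM in WT and 2.03, 1.41 and 1.9 CPM in Ube3a m-/p+ mice, rested on 93 counts in all. Its 95% interval of -0.58 to 0.91 around a log2 fold change of 0.17 (edgeR adjusted p = 0.804) held a 1.2-fold change in either direction. Per kilobase, *Rxrb* made up 61.9% to 69.6% of the summed RXR level in WT and 70.4% to 73.6% in Ube3a m-/p+ mice, without overlap. This share too rests on CPM without the correction, and *Rxrb* has a GC content of 61.4%. The summed RAR level was 6.92 to 8.29 CPM per kilobase in WT and 7.5 to 9.18 in Ube3a m-/p+ mice and overlapped.

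Of the thyroid hormone receptors, *Thra* was called higher and *Thrb* was not called. *Thra*, which codes for the thyroid hormone receptor alpha and for a splice form that binds no hormone (GRCm38 chr11:98740638-98769006), was at 852, 770.006 and 723 CPM in WT mice 1, 2 and 3 and at 896, 1127 and 1174 CPM in Ube3a m-/p+ mice 1, 2 and 3. All 3 Ube3a m-/p+ mice were above all 3 WT mice, Ube3a m-/p+ mouse 1 only slightly above WT mouse 1. The means were 782 ± 65.5 CPM in WT and 1066 ± 149 CPM in Ube3a m-/p+ mice (SD, n = 3), a log2 fold change of 0.47 (SE 0.11, edgeR adjusted p = 0.0402, exact permutation p = 0.1). The call was lost without WT mouse 2 or 3 or Ube3a m-/p+ mouse 2 or 3 (edgeR adjusted p 0.151 to 0.263) and after the correction for GC content and length, which left 0.21 (adjusted p = 0.172). *Thrb*, the beta receptor, was at 35.8, 44.8 and 40.04 CPM in WT and 38.4, 33.4 and 31.6 CPM in Ube3a m-/p+ mice, overlapping, with a log2 fold change of -0.21 (SE 0.12, edgeR adjusted p = 0.277) and of -0.033 after the correction. Per kilobase, *Thra* exceeded *Thrb* 27.6 to 38.2 times in WT and 37.4 to 59.7 times in Ube3a m-/p+ mice, ranges that overlapped. *Thra* shares 263 bp of exon with *Nr1d1*, which is transcribed from the opposite strand. The 2 splice forms of *Thra* cannot be told apart in gene counts.

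The REV-ERB receptors *Nr1d1* and *Nr1d2* repress, and the ROR receptors *Rora* and *Rorb* activate, genes with a shared element, among them *Arntl* of the circadian clock. *Rora* and *Rorb* fell by the call, *Nr1d2* was lower in every Ube3a m-/p+ mouse without passing it, and *Nr1d1* was not called. *Rora* (GRCm38 chr9:68653786-69388246) was at 26.97, 28.2 and 38.5 CPM in WT mice 1, 2 and 3 and at 21.5, 20.1 and 18.4 CPM in Ube3a m-/p+ mice 1, 2 and 3. WT mouse 3 was the highest, and the genotypes did not overlap. The log2 fold change was -0.62 (SE 0.14, edgeR adjusted p = 0.0387, exact permutation p = 0.1). *Rorb* (GRCm38 chr19:18930605-19111196) was at 29.4, 32.5 and 28.1 CPM in WT and 19.8, 21.2 and 17.5 CPM in Ube3a m-/p+ mice. No value of one genotype came near the other, and the means were 30.02 ± 2.25 CPM in WT and 19.5 ± 1.88 CPM in Ube3a m-/p+ mice (SD, n = 3). Its log2 fold change of -0.60 had the smallest p among the members (SE 0.12, edgeR adjusted p = 0.0362, exact permutation p = 0.1). Both calls were lost without WT mouse 2 or 3 or Ube3a m-/p+ mouse 2 or 3, at an edgeR adjusted p of 0.149 to 0.251 for *Rora* and 0.136 to 0.251 for *Rorb*. After the correction for GC content and length the fold changes were -0.34 (adjusted p = 0.164) and -0.35 (adjusted p = 0.145). *Rorb* is strong in thalamus and cortex. Summed thalamus markers were 75.1 to 87.2 CPM in WT and 86.5 to 89.4 CPM in Ube3a m-/p+ mice, a sum led by *Prkcd*, and 4 of the 7 thalamus markers tested had a fold change above 0, whereas *Tcf7l2* was lower in every Ube3a m-/p+ mouse (7.29 ± 0.327 CPM in WT, 5.62 ± 0.557 CPM in Ube3a m-/p+ mice, SD, n = 3). Their part in the *Rorb* difference was not tested, and cortex markers were not analysed here.

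*Nr1d2* was at 91.5, 97.3 and 103 CPM in WT and 83.6, 76.2 and 69.5 CPM in Ube3a m-/p+ mice, without overlap (log2 fold change -0.33, SE 0.094, edgeR adjusted p = 0.0632, exact permutation p = 0.1). DESeq2 called it (adjusted p = 0.0365), as did edgeR without WT mouse 1 (log2 fold change -0.37, adjusted p = 0.0158) or without Ube3a m-/p+ mouse 1 (-0.39, adjusted p = 0.0193). After the correction for GC content and length it was at -0.11 (edgeR adjusted p = 0.520). *Nr1d1* was at 329.9, 315 and 316 CPM in WT mice, which agreed closely, and at 308, 374 and 384 CPM in Ube3a m-/p+ mice, which lay on both sides of them. Its log2 fold change was 0.17 (SE 0.093, edgeR adjusted p = 0.272), and -0.019 after the correction. The time of day of the dissections is not given in the sources used here, and both REV-ERB genes follow the clock.

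**Figure D3:**
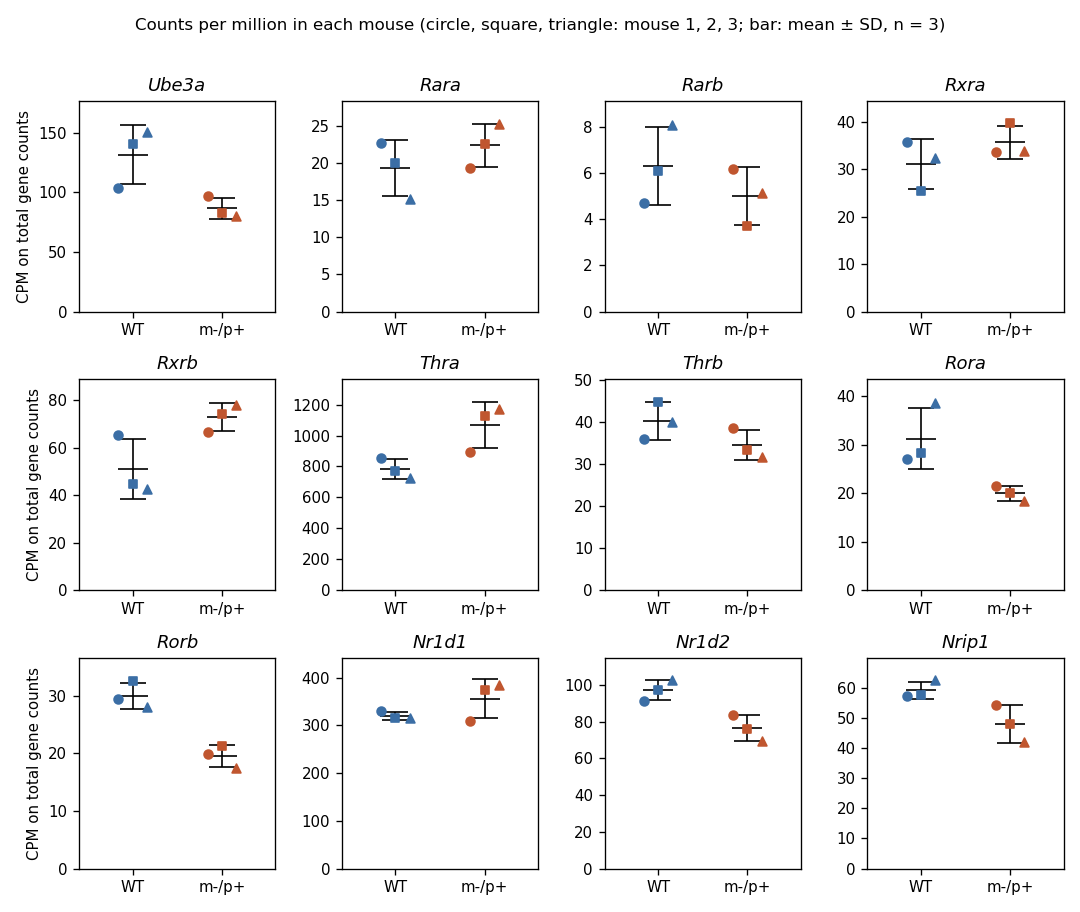
CPM of *Ube3a* and 11 members in each mouse, with circles, squares and triangles for mice 1, 2 and 3 of each genotype and bars for the mean and SD (n = 3). *Rorb* lies at 28.1 to 32.5 in WT and 17.5 to 21.2 in Ube3a m-/p+ mice, whereas for *Rxrb* and *Thra* mouse 1 of either genotype lies close to the other.

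The receptors for lipids, bile acids and vitamin D yielded no call. *Nr1h3*, the liver X receptor alpha, was at 4.0, 3.69 and 3.29 CPM in WT and 5.64, 4.77 and 4.85 CPM in Ube3a m-/p+ mice, without overlap, from 245 counts in all (log2 fold change 0.48, SE 0.23, edgeR adjusted p = 0.213). Its relative *Nr1h2*, the liver X receptor beta, overlapped at 38.3 ± 3.75 CPM in WT and 42.3 ± 1.03 CPM in Ube3a m-/p+ mice (log2 fold change 0.16). The fatty acid receptors *Ppara* (0.048) and *Ppard* (-0.014) overlapped, and *Pparg*, the fat cell receptor, had 70 counts and a log2 fold change of -0.76 with a 95% interval of -2.02 to 0.50. Of *Pparg*'s WT counts, WT mouse 3 held the most, at 2.74 CPM, and Ube3a m-/p+ mouse 2, at 1.94 CPM, lay above WT mouse 2.

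*Vdr*, the vitamin D receptor, had 8 counts in WT mice, 1, 5 and 2 by mouse, against 0 counts in each Ube3a m-/p+ mouse. That is 0.327 CPM over the WT group (exact two-sided Poisson 95% interval 0.141 to 0.644). For 0 counts over the Ube3a m-/p+ group a fixed floor of 3 counts was taken, which is 0.0977 CPM. Both cover counting error only, and the floor is a narrower limit than an exact two-sided one. The bile acid receptor *Nr1h4* had 19 counts, of which Ube3a m-/p+ mouse 1 held 9. Neither was tested. For both the data cannot show more than that their RNA was near the limit of detection in this tissue.

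Of the steroid receptors, the mineralocorticoid receptor *Nr3c2* and the glucocorticoid receptor *Nr3c1*, which bind corticosterone, were abundant, and the sex steroid receptors were not. *Nr3c2* was at 264, 263 and 274 CPM in WT and 261, 210.3 and 229 CPM in Ube3a m-/p+ mice. The WT mice agreed closely and all Ube3a m-/p+ mice lay below them, Ube3a m-/p+ mouse 1 by little, with a log2 fold change of -0.17 (SE 0.088, 95% interval -0.36 to 0.013, edgeR adjusted p = 0.232). *Nr3c1* was at 100.004, 101 and 97.1 CPM in WT and 95.03, 89.4 and 73.8 CPM in Ube3a m-/p+ mice, again without overlap, with a log2 fold change of -0.19 (SE 0.10, 95% interval -0.40 to 0.016, edgeR adjusted p = 0.235) that the correction for GC content and length moved to 0.03. Per kilobase, *Nr3c2* exceeded *Nr3c1* by 3.09 to 3.35 times in WT and 2.79 to 3.69 times in Ube3a m-/p+ mice, so the ratio of the 2 corticosterone receptors overlapped between genotypes. The progesterone receptor *Pgr* was at 19.9 ± 2.06 CPM in WT and 16.7 ± 1.19 CPM in Ube3a m-/p+ mice (SD, n = 3), without overlap and without a call (log2 fold change -0.24, edgeR adjusted p = 0.279). The oestrogen receptors were rare, with 67 counts for *Esr1* (log2 fold change -0.62, 95% interval -1.61 to 0.38) and 5 for *Esr2*.

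The oestrogen-related receptors bind no oestrogen and drive genes of mitochondrial metabolism. *Esrrg* was at 14.96, 16.02 and 22.8 CPM in WT and 15.7, 13.2 and 10.2 CPM in Ube3a m-/p+ mice. WT mouse 3 stood above the rest, Ube3a m-/p+ mouse 1 overlapped the WT mice, and the log2 fold change was -0.44 (SE 0.18, edgeR adjusted p = 0.154), and -0.23 after the correction. *Esrra* had a log2 fold change of 0.39 (SE 0.22, edgeR adjusted p = 0.316) with a wide spread in WT mice (34.5 ± 10.4 CPM, SD, n = 3), and without WT mouse 1 it was called, at 0.64 (adjusted p = 0.0245). *Esrrb* had 82 counts and did not overlap, at 1.71 ± 0.0622 CPM in WT and 1.3 ± 0.233 CPM in Ube3a m-/p+ mice (log2 fold change -0.38, edgeR adjusted p = 0.552).

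Among the other orphan receptors, whose natural ligands are unknown or disputed, none was called. *Nr2f6* was at 34.04, 29.97 and 26.9 CPM in WT and 33.03, 44.5 and 42.8 CPM in Ube3a m-/p+ mice, WT mouse 1 overlapping Ube3a m-/p+ mouse 1 (log2 fold change 0.42, SE 0.13, edgeR adjusted p = 0.0746). EdgeR called it without WT mouse 1 (adjusted p = 0.0172) or Ube3a m-/p+ mouse 1 (adjusted p = 0.0114), and the correction moved it to 0.036. Its exons overlap *Ocel1* on the opposite strand over 54.4% of their length. The COUP factors *Nr2f1* (60.5 ± 3.27 CPM in WT, 62.9 ± 1.46 in Ube3a m-/p+ mice) and *Nr2f2* (12.2 ± 0.709 and 13.5 ± 3.23) overlapped, with log2 fold changes of 0.077 and 0.17. For *Nr2f1*, a patterning factor of cortex and hippocampus, the 95% interval of -0.11 to 0.27 was among the narrowest of the set. The testicular receptors *Nr2c1* (-0.24) and *Nr2c2* (-0.18), *Nr2e1* (-0.15), which keeps neural stem cells dividing, and *Nr6a1* (-0.11) also overlapped, at edgeR adjusted p of 0.249 to 0.756. *Nr2c2* shares 30.7% of its exon length with *Mrps25* on the opposite strand. *Nr5a2* and *Hnf4a*, receptors of liver and gut, had 0 counts in every library. The floor of 3 counts is 0.123 CPM over the WT group and 0.0977 CPM over the Ube3a m-/p+ group. The exact two-sided Poisson 95% limit over the WT group is 0.151 CPM.

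None of the 5 coregulators was called. *Ncor1*, the scaffold of the complex through which unliganded receptors recruit histone deacetylase, was at 296, 273 and 261 CPM in WT and 309, 279.997 and 224 CPM in Ube3a m-/p+ mice. The Ube3a m-/p+ mice lay on both sides of the WT mice, and the log2 fold change was -0.016 (SE 0.10, 95% interval -0.24 to 0.21, edgeR adjusted p = 0.941). *Nrip1*, a corepressor that binds receptors with their ligand and limits retinoic acid and oestrogen responses, was at 57.2, 57.6 and 62.5 CPM in WT and 54.3, 47.8 and 41.9 CPM in Ube3a m-/p+ mice. All Ube3a m-/p+ mice lay below all WT mice, with a log2 fold change of -0.28 (SE 0.10, edgeR adjusted p = 0.115, exact permutation p = 0.1) that was called by edgeR only without Ube3a m-/p+ mouse 1 (-0.37, adjusted p = 0.0330) among the fits that left out a mouse.

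The p160 coactivators bind liganded receptors and bring histone acetyltransferases to them. *Ncoa1* was at 242, 237 and 227 CPM in WT and 228, 215 and 213 CPM in Ube3a m-/p+ mice (log2 fold change -0.086, SE 0.078, edgeR adjusted p = 0.522). *Ncoa2* was at 109, 119 and 113 CPM in WT and 116, 105 and 75.9 CPM in Ube3a m-/p+ mice (-0.19, SE 0.12, edgeR adjusted p = 0.356), and Ube3a m-/p+ mouse 3 lay far below the other 5 mice. *Ncoa3* was at 74.8, 78.96 and 72.5 CPM in WT and 81.2, 68.6 and 70.8 CPM in Ube3a m-/p+ mice (-0.022, SE 0.095, edgeR adjusted p = 0.912). All 3 overlapped between genotypes. The 95% intervals were -0.25 to 0.08 for *Ncoa1*, -0.45 to 0.074 for *Ncoa2* and -0.22 to 0.18 for *Ncoa3*, so a change of *Ncoa1* or *Ncoa3* by more than 0.26 on the log2 scale, which is 1.2-fold, lies outside them in either direction.

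The members' fold changes followed the GC content of their transcripts. In each library the deviation of every gene from its mean over the 6 libraries was set against the GC content of its longest transcript, and Spearman's rho over 14327 genes was 0.0455 in WT mouse 1, -0.505 in WT mouse 2 and -0.571 in WT mouse 3. It was 0.0579 in Ube3a m-/p+ mouse 1, 0.525 in Ube3a m-/p+ mouse 2 and 0.529 in Ube3a m-/p+ mouse 3. Over the 36 members rho for the WT mice was -0.155, -0.669 and -0.693, and for the Ube3a m-/p+ mice 0.0893, 0.53 and 0.683. The members share these libraries with all other genes, so the values are descriptions. The fold changes had a rho with GC content of 0.768 over the members and 0.621 over all genes. Of the 18 members above 50% GC, 13 had a fold change above 0 (all genes: 75.8%), and of the 18 at or below 50% GC, 1 had (all genes: 25.8%). The exception at low GC was *Nr2f2*. The members called were among those of high or low GC content, *Thra* at 59.8% GC, *Rora* at 40.9% and *Rorb* at 41.6%, as did *Rxrb* (61.4%), *Nr2f6* (67.3%) and *Nr1d2* (41.8%). *Nr1h2* (60.6%) and *Nr2f1* (60.2%) had a higher GC content than *Thra*, with fold changes of 0.16 and 0.077. The fold changes also had a rho with transcript length, of -0.571 over the members and -0.280 over all genes. The correction below takes out both together, so their parts cannot be told apart by it, and whether the relation belongs to the genotype or to the preparation of the libraries was not tested.

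When the relation to GC content and length was removed from every library, edgeR called 0 of the 36 members, against 93 of 14327 genes (0.649%), and 4 members were at an unadjusted p below 0.05 (11.1%, against 14.2% of all genes). These were *Rxrb* (0.27) and *Thra* (0.21), higher (6.88% of all genes), and *Rora* (-0.34) and *Rorb* (-0.35), lower (7.35% of all genes). For 28 of the 36 members the log2 fold change came closer to 0 (66.3% of all genes), and for 7 it changed sign (19.4%, against 24.8% of all genes). Those 7 were *Rarg*, *Nr1d1*, *Ppara*, *Nr1h2*, *Nr3c1*, *Nr2f1* and *Ncor1*, between -0.19 and 0.17 before and between -0.17 and 0.05 after. Of the members not called, the log2 fold change after the correction was 0.004 for *Rara*, 0.057 for *Rxra*, -0.27 for *Rarb* and -0.088 for *Nrip1*. Over the members Spearman's rho with GC content was then 0.334. The corrected values of the 2 genotypes did not overlap for 7 members (17.4% of all genes), *Rxrb*, *Thra*, *Nr1d2*, *Rora*, *Rorb*, *Nr1h3* and *Esrrb*.

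**Figure D4:**
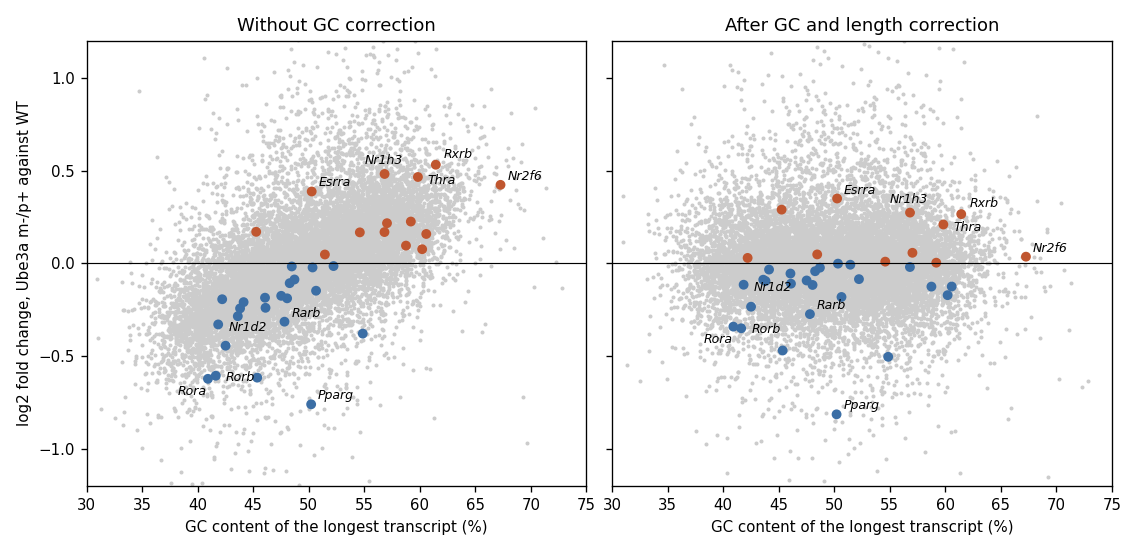
Log2 fold change of Ube3a m-/p+ against WT mice against the GC content of the longest transcript, without (left) and with (right) the correction for GC content and length, for all genes tested (grey) and the 36 members (orange above 0, blue below). Points beyond 1.2 on either side of 0 are not drawn. On the left *Rora* and *Rorb* at low GC lie near -0.6 and *Thra* and *Rxrb* at high GC near 0.5, and on the right all 4 lie closer to 0.

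WT mouse 1 and Ube3a m-/p+ mouse 1 were the 2 libraries with a GC relation near 0, a pair singled out after its values were seen. Their ratios are descriptions of 2 libraries, with exact 95% intervals for counting error only. For *Ube3a* and the members whose genotypes did not overlap, the side of 1 was fixed by that. The ratios are therefore no further support for a difference, and the share over all genes is not given here. The ratio of Ube3a m-/p+ mouse 1 to WT mouse 1 was 0.674 (0.552 to 0.820) for *Rorb* and 0.798 (0.655 to 0.971) for *Rora*. It was 1.05 (1.02 to 1.09) for *Thra* and 1.01 (0.901 to 1.14) for *Rxrb*, the former just above 1 and the latter with an interval that holds 1. *Nr1d2* stood at 0.914 (0.825 to 1.01), *Nr2f6* at 0.970 (0.822 to 1.15), *Nrip1* at 0.949 (0.835 to 1.08) and *Esrrg* at 1.05 (0.817 to 1.34), intervals that all hold 1. *Ube3a* itself stood at 0.935 (0.850 to 1.03).

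Of 93 further genes of these pathways, 83 were tested, and edgeR called 3 of them, all lower in Ube3a m-/p+ mice, beside 2.01% of all genes. Among 33 other coregulators, all tested, the call fell on *Tbl1xr1* (log2 fold change -0.48, SE 0.10, edgeR adjusted p = 0.0362), a subunit of the complex that *Ncor1* scaffolds, at 113, 131 and 135 CPM in WT and 97.7, 85.02 and 86.02 CPM in Ube3a m-/p+ mice. Of the 33, 10 were at an unadjusted p below 0.05 (30.3%, against 24.6% of all genes), with 4 higher and 6 lower. Among 14 glucocorticoid receptor targets, all tested, 2 fell, the metallothioneins *Mt1* (-0.54, SE 0.10, edgeR adjusted p = 0.0362) and *Mt2* (-0.41, SE 0.085, edgeR adjusted p = 0.0362), which also answer to zinc. *Mt1* was at 242, 334 and 299 CPM in WT and 208, 190.023 and 197 CPM in Ube3a m-/p+ mice. *Mt2* was at 135, 147 and 150.3 CPM in WT and 107, 103 and 112 CPM in Ube3a m-/p+ mice, and after the correction it was at -0.70 (edgeR adjusted p = 0.00131), the single one of the 83 still called. *Mt1* was then at -0.72, a larger fold change that was no longer called (edgeR adjusted p = 0.1505). Neither *Mt1* nor *Mt2* overlapped between genotypes. Of the exon length of *Mt2*, 73.5% (432 bp) overlaps *Gm45774* on the opposite strand, and the strand setting of the counting is not known. Its longest transcript is only 511 bp, and the correction, which includes length, made its fold change larger. Of the 14 targets, 11 had a fold change below 0 (78.6%, against 49.7% of all genes), with a median of -0.09. The 3 above 0 were *Ddit4* (0.54, edgeR adjusted p = 0.212), *Cdkn1a* (0.25, adjusted p = 0.676) and *Fkbp5* (0.09, adjusted p = 0.614).

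The target lists of the other receptors had no call. Of 4 retinoic acid receptor targets tested, the smallest p belonged to *Stra6* (0.31, edgeR adjusted p = 0.265) and *Cyp26b1* (-0.26, adjusted p = 0.307), the retinol transporter and a retinoic acid hydroxylase, and none of the 4 was at an unadjusted p below 0.05. After the correction *Cyp26b1* was at -0.42 (unadjusted p = 0.00550, edgeR adjusted p = 0.135). Of 5 thyroid hormone targets, *Klf9* (-0.26, edgeR adjusted p = 0.0839) and *Camk4* (-0.34, adjusted p = 0.0878) came first, and *Nrgn*, the third and named after its values were seen, went the other way (0.44, adjusted p = 0.0930). The correction left *Klf9* at -0.20, *Camk4* at -0.32 and *Nrgn* at 0.18. Of 6 liver X receptor targets, *Apoe* (0.54, edgeR adjusted p = 0.0819) and *Srebf1* (0.30, adjusted p = 0.0868) came first, and *Mylip*, named after its values were seen, was lower at an unadjusted p below 0.05 (-0.27, adjusted p = 0.163). With the correction *Apoe* was at 0.23, *Srebf1* at 0.095 and *Mylip* at -0.28. Of 5 REV-ERB and ROR targets, *Clock* (-0.35, edgeR adjusted p = 0.0963) and *Npas2* (-0.15, adjusted p = 0.493) came first. *Arntl*, the target named above, was the single one of the 5 with a fold change above 0 (0.10, edgeR adjusted p = 0.579). After the correction *Clock* was at -0.08 and *Arntl* at 0.14. Of 10 PPAR targets, *Pdk4* (-0.24, edgeR adjusted p = 0.434) and *Cpt1a* (-0.15, adjusted p = 0.447) came first, and of 4 oestrogen-related receptor targets *Cycs* (0.26, adjusted p = 0.213) and *Atp5b* (0.11, adjusted p = 0.442). Of 9 remaining receptor genes 3 were tested, of which edgeR called 0 and 0 were at an unadjusted p below 0.05.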

How the data were processed

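Total RNA of the hippocampus was sequenced by the authors, 3 WT and 3 Ube3a m-/p+ male mice, 1 library each. Per the labels, reads were processed with STAR 2.7.4a and HTSeq on mm10. The annotation, the HTSeq version and the strand setting are not given in the sources used here. The deposited values are counts, whole numbers of reads per gene symbol, not normalized and not pooled, with 5 summary lines. These were left out of library sizes and tests, and 54.1% to 55.0% of the listed reads were on no feature. Counts on genes were 7293272 to 11314409 per library, and intervals and floors computed from them cover counting error only. The edgeR p-values set a difference against the variation between these mice, estimated with the help of all genes. Nothing says that the mice came from separate litters, so how far any p-value holds beyond these mice is not known.

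The set and the lists around it were chosen with earlier results of these data known. Symbols were matched to GENCODE M21 (24366 by symbol, 351 by synonym, 522 not matched), and RefSeq promoter windows to 37 of the 41 members. Counts were analysed in R 4.3.3 with edgeR 4.0.16 (filterByExpr, TMM, robust quasi-likelihood F test, genotype as the only factor, two-sided, Benjamini-Hochberg over 14445 genes). The biological coefficient of variation was 0.102. Values of single mice are CPM on total gene counts, and exact permutation tests used the log2 of these values after adding 0.1. Levels per kilobase used the union of annotated exons. The correction for GC content and length fitted natural splines with 5 degrees of freedom each in every library for 14327 genes (99.2%) and entered the fit as offsets. Alternatives tried were DESeq2 1.42.0, scaling by RLE, upper quartile or library size, no filter, a minimum of 10 counts in every sample, a replicate block, the correction with and without the block, leaving out each mouse, and other thresholds. The steps were tested on simulated counts.

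Named with values per mouse are *Ube3a*, members at an unadjusted p below 0.05, the retinoid and thyroid hormone receptors, *Nr3c1*, *Nr3c2* and the coregulators, and of each further list the genes called. Of a further list with no call, the 2 genes with the smallest p are named by their fold change. Some further genes of these lists were named after their values were seen. Of the other members, some have values per mouse and the rest only means, total counts or fold changes. The genes of the list of remaining receptors are not reported here by name.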

Additional observations from a re-analysis of the deposited data

How the results depend on the processing

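The direction of all 36 members and of *Ube3a* stayed the same under DESeq2, the 3 other scalings (which put the median of all genes between -0.015 and 0.015), no filter, a minimum of 10 counts (which left 34 of the 36 members) and the replicate block. Of the 3 members called (290 of all genes), DESeq2 made 5, with *Nr1d2* and *Rxrb* (951 of all genes). With no filter there were 6, with *Nr2f6* too (1176 of all genes). An unadjusted p with the fold threshold gave 8 of 36 members (2832 of 14445 genes). Calls over all genes rose in the same settings, so these rises are no result about the members. The replicate block, the correction for GC content and length and the 2 together each left 0 (edgeR, with 7, 4 and 4 members at an unadjusted p below 0.05), and the fits that left out 1 mouse gave 0 to 7. Members at an unadjusted p below 0.05 were 8, and 4 after the correction with or without the block, and 6 to 15 without 1 mouse. Members whose genotypes did not overlap were 11, and 7 after the correction.

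Calls rose without WT mouse 1 (7 members) or Ube3a m-/p+ mouse 1 (7), the libraries with a GC relation near 0, and ended without any of the 4 others. Calls over all genes also rose in at least 1 fit that left out a mouse, as the range below shows. The share over all genes is not given here for each of these fits, so the member counts in them are no result about the members. The cause of the rise was not tested.

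Among the 83 further pathway genes the 3 calls became 7 by DESeq2, 6 with no filter, 16 at an unadjusted p with the fold threshold, 0 with the block (16 at an unadjusted p below 0.05), 1 after the correction with or without the block, and 0 to 17 without 1 mouse. Over all genes the 290 calls became 951 by DESeq2 (283 shared), 1176 with no filter, 2832 at an unadjusted p with the fold threshold, 0 with the block (2422 at an unadjusted p below 0.05), 93 after the correction (49 shared), 17 after the correction with the block, and 0 to 2582 without 1 mouse, where the fits with 0 had at least 2075 at an unadjusted p below 0.05.

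The log2 fold change of *Ube3a* lost its call with the replicate block (-0.57, edgeR adjusted p = 0.216), after the correction (-0.20, adjusted p = 0.241) and with both (-0.19, adjusted p = 0.375), and ranged from -0.73 to -0.48 without 1 mouse. When each genotype was centred on its own mean, same-numbered mice did not deviate together (correlations of -0.285, -0.177 and -0.311). Mouse 1 of either genotype had little GC relation, and mice 2 and 3 had opposite ones by genotype. The centring turns this into opposite deviations, so the correlations cannot show whether same-numbered libraries had a shared origin. By chi-square per gene, a measure of how far 2 libraries differ, WT mouse 1 and Ube3a m-/p+ mouse 1 were the closest pair (3.59). WT mice 2 and 3 came next (3.74). The block rests on shared numbers alone, and the pairing is not part of the design.

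Reversed by the correction were *Rarg* (-0.12), *Nr1d1* (-0.019), *Ppara* (-0.0069), *Nr1h2* (-0.12), *Nr3c1* (0.030), *Nr2f1* (-0.17) and *Ncor1* (0.049), and with the block as well *Rarg* (-0.13), *Nr1d1* (-0.022), *Nr1h2* (-0.12), *Nr3c1* (0.031), *Nr2f1* (-0.17) and *Ncor1* (0.050). Leaving out 1 mouse reversed *Ncoa3* (-0.086 to 0.037), *Ncor1* (-0.11 to 0.10), *Nr2f2* (-0.039 to 0.28), *Nr6a1* (-0.27 to 0.03), *Ppara* (-0.27 to 0.45) and *Ppard* (-0.088 to 0.076).

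Depth limits the low members. *Rxrg*, *Pparg*, *Esr1* and *Esrrb* had 67 to 93 counts, and the 95% interval of their log2 fold change spanned more than 1.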
